A study of Mus musculus with 4 samples.

Results

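The genes that encode potassium, calcium and sodium channels and their subunits were followed in RNA-seq of primary mouse embryonic fibroblasts (MEFs) with and without *Phf2*, a PHD finger protein of the Jumonji C family that binds methylated histone H3. Members were taken by symbol, as every gene of the count table that starts with Kcn, with Cacna, Cacnb or Cacng, or with Scn and a digit. These were 138 of 24391 genes: 94 potassium channel genes, 26 calcium channel genes, 14 sodium channel genes and 4 noncoding RNAs named after a potassium channel gene. The pattern leaves out epithelial sodium channels and the channels of other families. The rule did not use any measured value apart from a mean count of at least 20 over the 4 libraries for the genes that are named here. It was reached by 49 members, of which 45 are reported by name, while counts of genes cover all members.

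There were 2 WT and 2 *Phf2* KO libraries, numbered as replicates 1 and 2 in each group. The cells came from embryos at embryonic day 13.5, were not immortalized and were held in quiescence. All 4 libraries, the WT ones included, carry *Phf2* flox/flox and ERCre/+, a CreERT2 recombinase expressed from the *Rosa26* locus that 4-hydroxytamoxifen (4-OHT) activates, and a tamoxifen label is found on the *Phf2* KO libraries only. The protocol, worded alike for all 4 samples, gives 0.5 µM 4-OHT for 7 days in medium with 2% charcoal-treated serum, and does not name what the WT cells received in its place. Loss of *Phf2*, Cre activity and 4-OHT itself therefore cannot be told apart. Nothing in the labels says whether same-numbered libraries share an embryo, so p-values measure the spread between these libraries.

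The pore-forming subunits of these channels open in response to voltage, calcium, stretch or ligands. Potassium efflux through them sets the resting potential, calcium entry couples voltage to signalling, and sodium entry drives the upstroke of the action potential in nerve and muscle. Auxiliary subunits decide how many channels reach the membrane and how they gate. Fibroblasts do not fire action potentials but carry calcium-activated, inwardly rectifying and leak potassium channels and voltage-gated calcium channels, which bear on their membrane potential, proliferation and contraction.

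Each library held between 21094743 and 26094268 counts, and the detection limit of 3 counts stood for 0.115 to 0.142 CPM (here relative to the library total before TMM scaling; counting error only). *Phf2* itself had 3244 and 3680 counts in WT (replicate 1 first, here and throughout) against 1454 and 2158 in *Phf2* KO, or 57.9% of WT after scaling. These counts are summed over the whole gene and do not tell intact from recombined transcript. The paper reports depletion of the Phf2 protein in *Phf2* KO MEFs. All 10 fibroblast markers had a mean count of at least 20 and together reached 76287 and 82049 CPM in WT against 71514 and 69529 CPM in *Phf2* KO, so their sum was lower in both *Phf2* KO libraries. The part of this in the channel gene values was not tested. Of the 9 skeletal muscle markers none reached a mean count of 20, and *Tie1* (endothelial) and *Myh6* (cardiac) were at 0 in every library. The 14 macrophage markers found were all present, at a summed 4059 and 887 CPM in WT against 4622 and 1397 CPM in *Phf2* KO, so macrophage RNA was measured in every library beside that of fibroblasts. In such bulk RNA, fewer cells of a type and less RNA per cell cannot be told apart.

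Most channel genes were hardly counted in these cells. Of the 138, 15 were at 0 in all 4 libraries, among them the cardiac and kidney potassium channel genes *Kcne1* and *Kcnj1*, the pancreatic *Kcnj11* and the sensory neuron sodium channel *Scn10a*, and 32, these included, had at most 3 counts in total. Together the 138 genes took 801 and 934 CPM in WT against 848 and 929 CPM in *Phf2* KO, so their summed level differed more between the replicate numbers than between the genotypes. Just inside the mean count of 20 lay *Kcna2* (20, 17, 16 and 29 counts in WT 1, WT 2, *Phf2* KO 1 and *Phf2* KO 2) and *Kcnab3* (27, 28, 9 and 19). Just outside it lay *Scn7a* (29, 9, 11 and 21).

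Per kilobase of exon, which is the only scale used here to set genes side by side, auxiliary subunits led. *Kcne4*, a single-span subunit that inhibits voltage-gated potassium channels, was at 51.6 ± 7.55 CPM per kb (mean ± SD over the 4 libraries). The intracellular calcium channel subunit *Cacnb3* was at 45.3 ± 8.93, within the spread of *Kcne4*. The highest pore was *Kcnj8*, the inward rectifier of ATP-sensitive potassium channels in vessel walls, at 21.5 ± 0.947 CPM per kb. It was followed by the L-type calcium channel *Cacna1c* at 9.38 ± 1.71, the P/Q-type *Cacna1a* at 5.63 ± 0.966, the subunit *Cacng7* at 5.60 ± 1.27 and the T-type *Cacna1g* at 4.83 ± 2.17. The last 3 did not differ beyond their spread, which for *Cacng7* and *Cacna1g* includes a difference between the groups. The sodium channel pores were low throughout: *Scn2a1*, the only 1 of 10 with a mean count of at least 20, reached 0.317 CPM per kb.

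**Figure D1:**
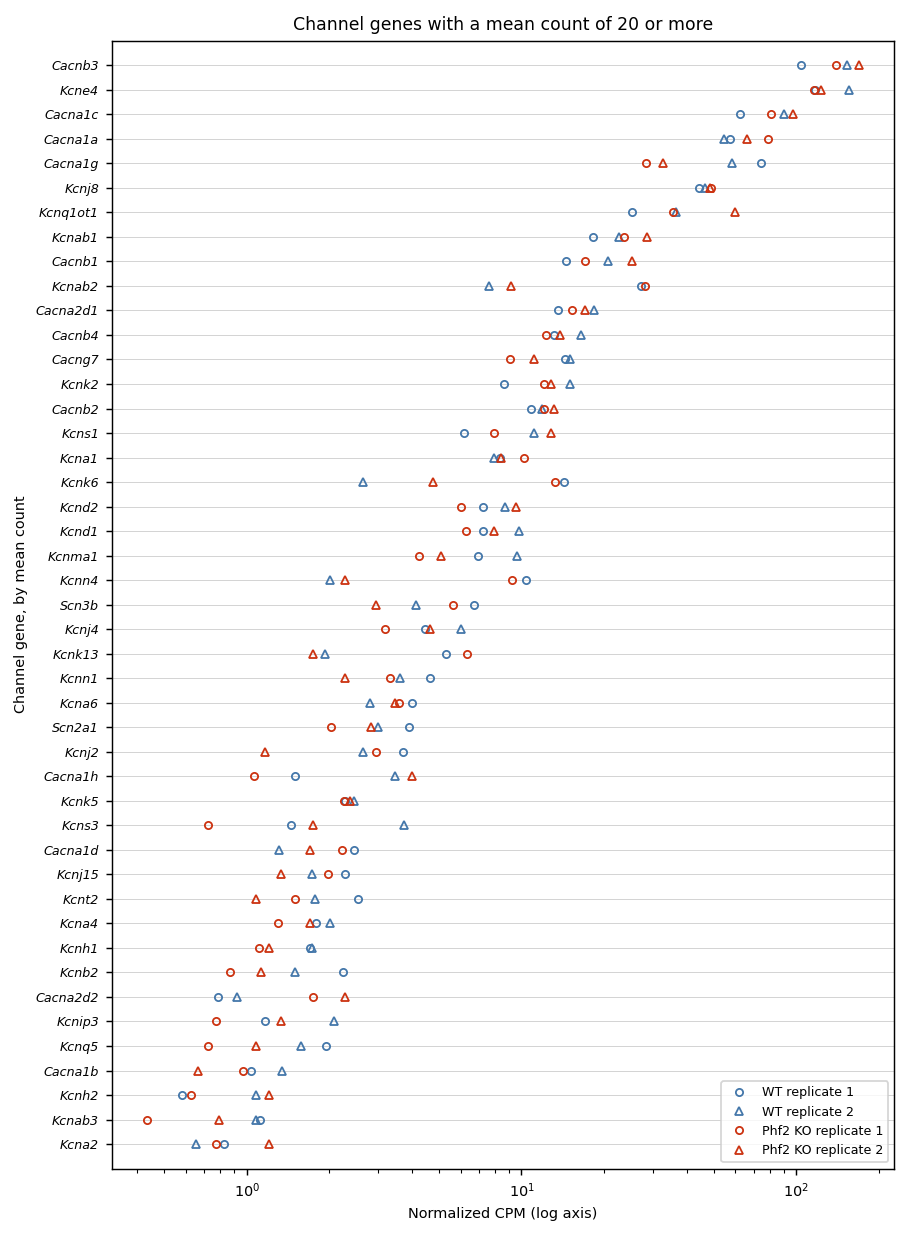
Normalized CPM (log axis) of 45 channel genes whose mean count reached 20, ordered by mean count, in each library (blue, WT; red, *Phf2* KO; circles, replicate 1; triangles, replicate 2). *Cacna1g* is the gene near the top whose red symbols both lie left of the blue ones, and *Kcnab2*, *Kcnk6*, *Kcnn4* and *Kcnk13* are split by replicate number.

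Members often sat beside silent relatives. On NCBIM37 (mm9), 57 of the 136 members placed lay within 500 kb of another, in 24 clusters. In the cluster on chromosome 6 that holds *Kcna5*, *Kcna1* and *Kcna6*, the mean counts were 9, 206 and 81.5. *Cacng7* had a mean count of 298 while its neighbours on chromosome 7, *Cacng8* and *Cacng6*, had 0.25 and 0. *Cacna1c* had 1965 and the adjoining *Cacna2d4* had 1, *Scn2a1* had 70.5 and *Scn3a* 1.25, and *Kcnj2* had 61.75 and *Kcnj16* 1.

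The comparison of *Phf2* KO with WT asks whether the channel genes change with the loss of this chromatin protein. The clearest difference was a lower level of *Cacna1g*, at 45.9% of WT. With the replicate number as a block, *Phf2* KO is compared with WT inside each number. Among the 49 genes whose mean count reached 20, 10 were then lower and 6 higher (20.4% and 12.2%, background 5.27% and 6.09%). No pore gene of a potassium channel was among the higher ones. The lower genes were *Cacna1g*, *Cacng7* and potassium channel pore genes. *Kcnn2*, *Kcnn3* and *Kcnh5* were called lower too, but they passed the filter on low counts through their WT libraries alone. This fixes their direction, so they are not counted here and are described without a test. The higher genes were the calcium channel genes *Cacna1a*, *Cacna1c*, *Cacnb3* and *Cacna2d2*, the potassium channel subunit *Kcnab1* and the noncoding RNA *Kcnq1ot1*.

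Without the block, none of the 60 members that passed the filter on low counts was called by edgeR's quasi-likelihood test at an adjusted p under 0.1, against 0% higher and 0.00732% lower of all 13668 genes tested. Over all 60 members, a set that takes in *Kcnn2*, *Kcnn3* and *Kcnh5*, the test gave 2 higher and 8 lower at an unadjusted p under 0.05 (background 1.54% and 2.67%). DESeq2 called 1, *Cacna1g*, as lower, with 0.337% of its genes called lower. The likelihood ratio test of edgeR called *Cacna1g* as well, and limma-voom called none. With the block, 6 higher and 10 lower genes were called among the 49 whose mean count reached 20 (12.2% and 20.4%), against 6.09% and 5.27% of the 12720 such genes in the table. In all 19 called members, *Kcnn2*, *Kcnn3* and *Kcnh5* included, the ratio of *Phf2* KO to WT had the same sign inside both numbers. The blocked fit favours such genes, so this describes the calls and is no separate test. The labels do not state a pairing. The block rests on the counts, in which the differences between replicates 1 and 2 in WT and in *Phf2* KO were correlated across genes (Pearson's r = 0.825 over 13668 genes, which are not independent replicates). It leaves 1 residual degree of freedom, so the spread of each gene is largely borrowed from all others. DESeq2 with the same block called only 3 channel genes, *Cacna1g*, *Kcnq1ot1* and *Cacna1a*.

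By a count that needs no model, all *Phf2* KO libraries were above all WT libraries in 6 of the 49 genes whose mean count reached 20 (12.2%, background 15.6%) and below them in 14 (28.6%, background 18.0%). The median log2 fold change over the 60 tested was -0.11, with quartiles of -0.56 and 0.15, against 0.01 over all genes, with quartiles of -0.12 and 0.13. Of the 60, 11 had a mean count under 20, *Kcnn2*, *Kcnn3* and *Kcnh5* among them. Over the 49 genes whose mean count reached 20 the median was closer to that of all genes, at -0.033 against 0.005 over all such genes. The quartiles of the 49 were -0.54 and 0.15. In what follows, each log2 fold change and SE is from the fit without the block unless said otherwise, and each adjusted p named with the block is from the blocked fit.

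**Figure D2:**
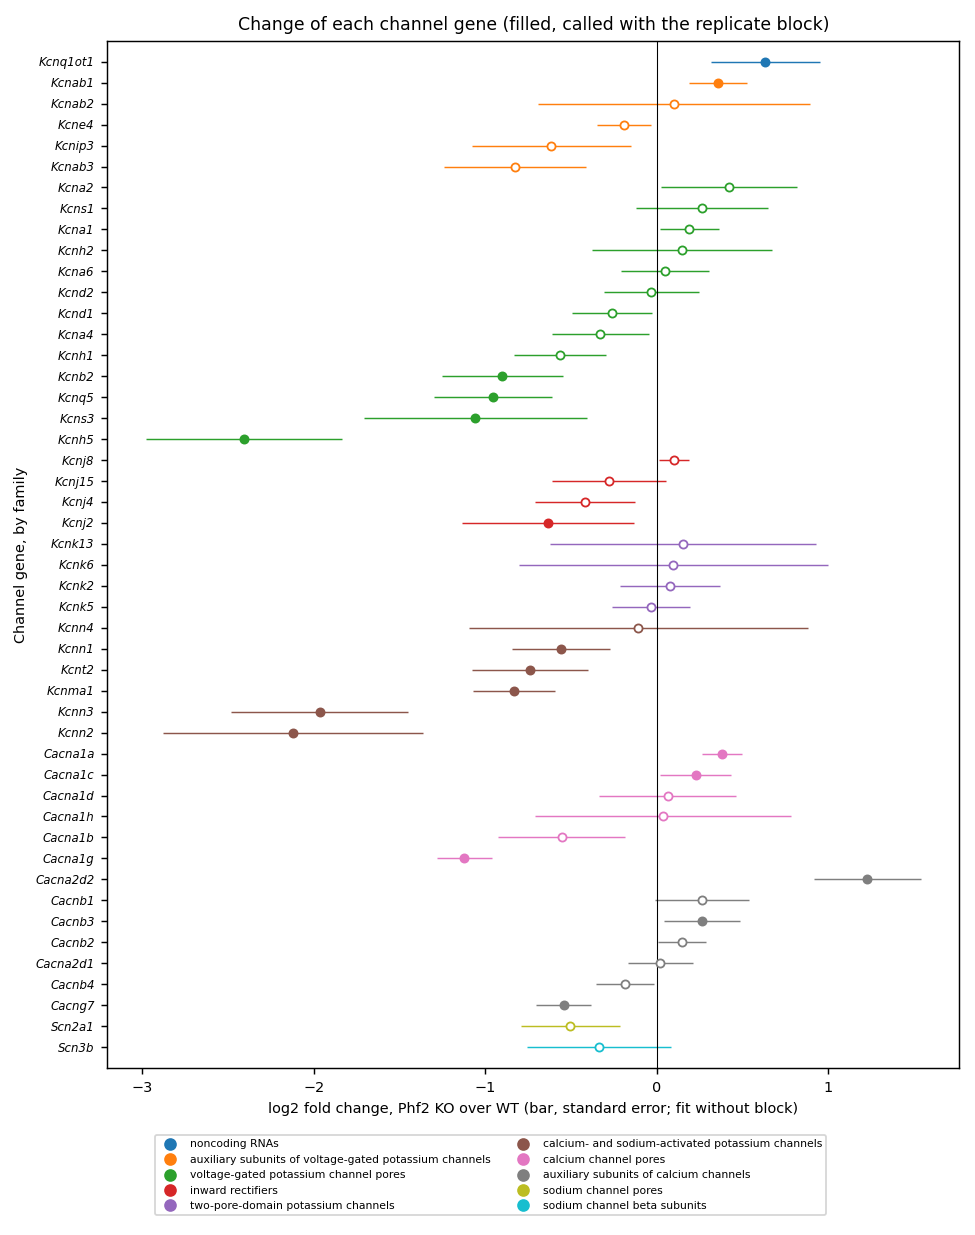
Log2 fold change of *Phf2* KO over WT with its standard error from the fit without the block, for 45 channel genes whose mean count reached 20 and for *Kcnn2*, *Kcnn3* and *Kcnh5*, by family. Filled points were called with the replicate block, 6 to the right of 0 and 12 to the left. The 12 include *Kcnn2*, *Kcnn3* and *Kcnh5*, whose direction was fixed by the filter on low counts.

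*Cacna1g* encodes the pore of a T-type calcium channel, which opens at small depolarizations near the resting potential. It lies on chromosome 11 from 94269705 to 94335414 (mm9, reverse strand). It was counted 1797 and 1518 times in WT against 589 and 786 times in *Phf2* KO. Both *Phf2* KO libraries lay far below both WT libraries, and the difference exceeded that between replicates. The level was 66.5 ± 11.3 CPM in WT and 30.5 ± 3.02 CPM in *Phf2* KO (SD, n = 2 each). The log2 fold change was -1.12 (SE 0.159) without the block, with an adjusted p of 0.999 in edgeR's quasi-likelihood test, and -1.11 with it, with an adjusted p of 9.75e-31 by edgeR. DESeq2 gave an adjusted p of 4.97e-05. Inside replicates 1 and 2 the log2 ratio was -1.39 and -0.84, and the log2 fold change ran from -1.30 to -0.94 when any library was left out.

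The other T-type pore that was measurable, *Cacna1h*, behaved otherwise. It was counted 36 and 90 times in WT against 22 and 96 times in *Phf2* KO, so the replicate numbers differed and the groups overlapped (log2 fold change 0.03, SE 0.746). Whether the changes of *Cacna1g* and *Cacna1h* differ was not tested.

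*Cacna1a*, the P/Q-type pore known from presynaptic endings, was higher in both *Phf2* KO libraries. It was counted 1379 and 1415 times in WT against 1636 and 1597 times in *Phf2* KO, 1.30-fold higher after scaling (log2 fold change 0.38, SE 0.114, adjusted p 0.000478 with the block, edgeR). An annotated transcript, *Gm16183*, overlaps its exons on the other strand, and the strand setting of the counting is not given in the sources used here, so its share of the reads is uncertain. Without *Phf2* KO replicate 1 the log2 fold change of *Cacna1a* was 0.25. *Cacna1c*, the main L-type pore of heart and smooth muscle, was counted 1503 and 2339 times in WT against 1681 and 2337 times in *Phf2* KO. Its groups overlapped, and it passed only inside numbers (log2 ratios 0.38 and 0.11, adjusted p 0.0491 with the block, edgeR). The log2 fold change of *Cacna1c* was 0.23 without the block and became -0.015 without WT replicate 1, 0.50 without WT replicate 2, 0.35 when *Phf2* KO replicate 1 was dropped and 0.090 when *Phf2* KO replicate 2 was. The N-type pore *Cacna1b* (-0.55) and the L-type *Cacna1d* (0.06) were not called in either fit.

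Among the calcium channel subunits, *Cacna2d2*, an extracellular subunit of the kind that binds gabapentin, showed the largest rise of all named channel genes. Its counts were few, 19 and 24 in WT against 36 and 55 in *Phf2* KO, but every *Phf2* KO library lay above every WT library. The log2 fold change was 1.23 (SE 0.31), or 2.35-fold, with an adjusted p of 0.00203 with the block by edgeR. *Gm17141* overlaps its exons on the other strand. *Cacnb3*, which brings pores to the membrane, was counted 2500 and 3976 times in WT against 2884 and 4065 times in *Phf2* KO. Its groups overlapped, and only the comparison inside numbers set it apart (log2 ratios 0.42 and 0.14, adjusted p 0.0143 with the block, edgeR). The log2 fold change of *Cacnb3*, 0.26, became 0.0087 without WT replicate 1, 0.56 without WT replicate 2, 0.40 when *Phf2* KO replicate 1 was dropped and 0.12 when *Phf2* KO replicate 2 was.

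*Cacng7*, of the family that includes regulators of AMPA-type glutamate receptors, went the other way. It was counted 347 and 390 times in WT against 188 and 267 times in *Phf2* KO, with no overlap between the groups. The log2 fold change was -0.54 (SE 0.159), with an adjusted p of 0.00136 with the block by edgeR. The remaining named subunits, *Cacna2d1* (0.02), *Cacnb1* (0.26), *Cacnb2* (0.15) and *Cacnb4* (-0.18), were not called. Of 14 calcium channel genes tested, 4 were thus higher and 2 lower with the block (background 5.77% and 5.20%).

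**Figure D3:**
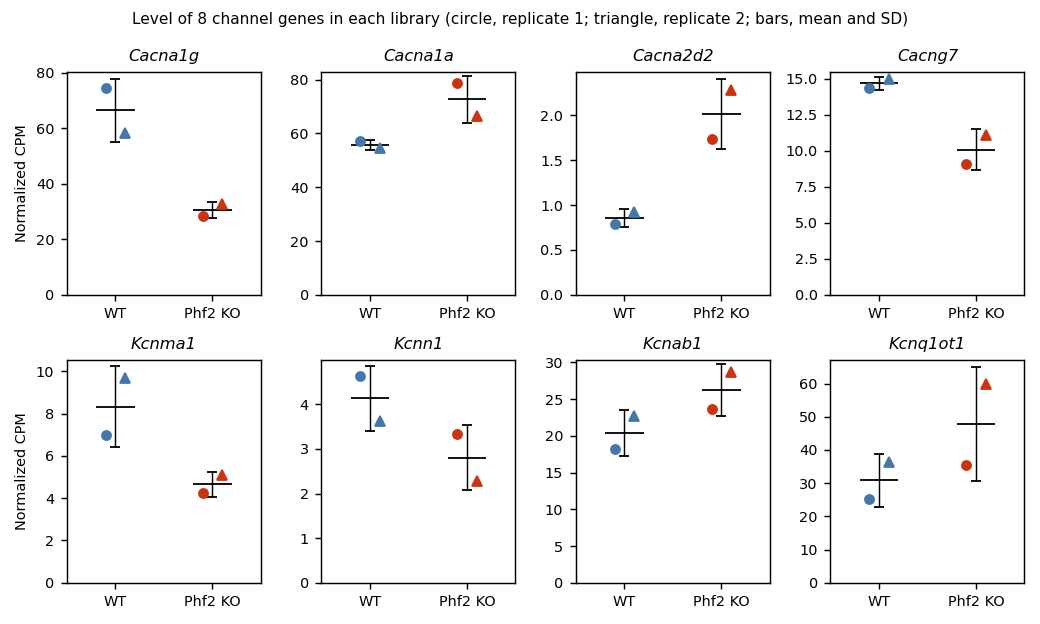
Normalized CPM of 8 channel genes in each library, with the group mean (bar) and SD (whiskers, n = 2); circles are replicate 1 and triangles replicate 2, and every axis starts at 0. Groups do not overlap for any gene shown except *Kcnq1ot1*, in which *Phf2* KO replicate 1 lies between the WT libraries.

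Calcium- and sodium-activated potassium channels link calcium or sodium entry to hyperpolarization. Of the 4 genes whose mean count reached 20, *Kcnma1*, *Kcnn1* and *Kcnt2* were lower with the block (background 5.27%), and in these 3 both *Phf2* KO libraries lay below both WT libraries (background 18.0%). *Kcnma1*, the large-conductance (BK) channel that calcium and voltage open together, lies on chromosome 14 from 24117983 to 24622526 (mm9). It was counted 168 and 251 times in WT against 88 and 122 times in *Phf2* KO. Each *Phf2* KO library lay below each WT library, and the level was 56% of WT (log2 fold change -0.83, SE 0.239, adjusted p 6.53e-05 with the block, edgeR). Of its accessory subunits, *Kcnmb4*, the one best known from brain, had 19 and 9 counts in WT against 9 and 5 in *Phf2* KO (-0.82, not called), and *Kcnmb1*, that of smooth muscle, had at most 2 in any library.

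The small-conductance (SK) channels are opened by calcium bound to calmodulin. *Kcnn1* was counted 112 and 94 times in WT against 69 and 55 times in *Phf2* KO, without overlap (log2 fold change -0.56, SE 0.288, adjusted p 0.0761 with the block, edgeR). *Kcnn2* had 19 and 25 counts in WT against 1 and 8 in *Phf2* KO, and *Kcnn3* had 13 and 14 in WT and 3 in each *Phf2* KO library. These 2 genes were at or near the limit of detection in *Phf2* KO. From the pooled counts, *Kcnn2* stood at 22.9% of WT (95% exact counting interval 9.82% to 47.5%) and *Kcnn3* at 24.8% (8.39% to 61.4%). These intervals hold counting error alone and leave out the spread between libraries. They are no test of a change, as the filter fixed the direction. *Kcnn4*, the intermediate-conductance channel of blood cells, was not lower beyond its spread: it was counted 251 and 52 times in WT against 192 and 55 times in *Phf2* KO. *Kcnt2*, a sodium-activated channel, was counted 61 and 46 times in WT against 31 and 26 times in *Phf2* KO (log2 fold change -0.74, SE 0.339, adjusted p 0.0849 with the block, edgeR). Leaving out WT replicate 1 gave -0.37 for *Kcnn1* and -0.46 for *Kcnt2*, and leaving out *Phf2* KO replicate 1 or 2 gave -0.85 or -0.31 for *Kcnn1*.

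RefSeq held 138 promoter windows (from 250 bases before to 50 bases after a start; GRCm38.p6) for 102 of the channel genes. Those of 3 calcium- or sodium-activated channel genes with lower counts in *Phf2* KO are shown from 5′ to 3′ on the strand of the gene, with each CG dinucleotide in capitals because its density sets housekeeping-like from tissue-restricted promoters apart. *Kcnma1* is at chr14:24004156-24004455 (reverse strand), *Kcnn3* at chr3:89519914-89520213 and *Kcnt2* at chr1:140245468-140245767 (forward strand).
Kcnma1: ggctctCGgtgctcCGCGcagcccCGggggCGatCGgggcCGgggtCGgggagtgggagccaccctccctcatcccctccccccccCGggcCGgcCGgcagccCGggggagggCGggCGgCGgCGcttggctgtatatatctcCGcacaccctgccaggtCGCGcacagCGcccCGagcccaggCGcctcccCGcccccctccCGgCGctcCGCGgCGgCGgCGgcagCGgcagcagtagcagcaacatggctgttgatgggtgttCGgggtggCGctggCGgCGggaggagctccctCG
Kcnn3: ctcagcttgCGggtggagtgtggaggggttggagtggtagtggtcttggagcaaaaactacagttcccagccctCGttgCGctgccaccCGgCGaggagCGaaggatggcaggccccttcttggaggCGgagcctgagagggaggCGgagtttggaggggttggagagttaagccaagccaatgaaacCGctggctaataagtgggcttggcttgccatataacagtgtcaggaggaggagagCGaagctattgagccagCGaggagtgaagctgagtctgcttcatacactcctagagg
Kcnt2: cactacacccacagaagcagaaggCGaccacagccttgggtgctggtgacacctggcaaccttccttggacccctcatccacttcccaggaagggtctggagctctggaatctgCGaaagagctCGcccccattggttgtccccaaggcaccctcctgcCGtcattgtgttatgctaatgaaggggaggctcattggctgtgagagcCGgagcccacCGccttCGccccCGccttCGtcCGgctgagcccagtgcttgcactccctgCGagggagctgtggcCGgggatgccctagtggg
The windows hold 36, 11 and 12 CG, against a median of 7 over all 32851 windows and of 9 over those of channel genes. At least 10 CG were found in 10 of 12 windows (9 genes) of the channel genes lower with the block, in 3 of 10 (5 genes) of those higher, in 52.6% of the windows of the channel genes whose mean count reached 20 and in 43.5% of all windows. The lower set includes *Kcnn3* and *Kcnh5*, whose direction the filter on low counts fixed. *Cacna1g* and *Cacna1a* are among the called genes that had no window, so neither set holds all genes called. The windows of one gene overlap or share a locus, so these are not independent counts. Taken by gene, every gene of the lower set had a window with at least 10 CG. In the higher set *Cacnb3* (29), *Cacna1c* (57) and *Cacna2d2* (43) had such a window too, while *Kcnab1* and *Kcnq1ot1* had none. Whether the sets differ was not tested. The GC box GGGCGG, itself holding a CG and searched on both strands, was in 7 of the 12 windows and 5 of the 10, against 52.6% of those of channel genes whose mean count reached 20 and 35.7% of all. TATAAA, searched likewise, was in 0 of the 12 and 1 of the 10, against 7.02% and 13.6%. A match is a description of letters and not of a bound site.

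Voltage-gated potassium channels repolarize cells after depolarization. Of 40 pore genes in this group, 15 had a mean count that reached 20, and 4 of these were lower with the block and none higher (background 5.27% and 6.09%). *Kcnb2*, a delayed rectifier, was counted 54 and 39 times in WT against 18 and 27 times in *Phf2* KO (log2 fold change -0.90, SE 0.352, adjusted p 0.0484 with the block, edgeR). Both *Phf2* KO libraries lay below both WT libraries, and the log2 fold change was -0.59 without WT replicate 1. *Kcns3*, a silent subunit that conducts only when assembled with a delayed rectifier such as *Kcnb2*, was counted 35 and 97 times in WT against 15 and 42 times in *Phf2* KO. The groups of *Kcns3* overlapped because replicate 2 exceeded replicate 1 in both, while its log2 ratios inside the numbers were close, at -1.0 and -1.10 (adjusted p 0.00343 with the block, edgeR). Its log2 fold change of -1.06 became -0.23 without WT replicate 2, -0.57 when *Phf2* KO replicate 1 was dropped and -1.83 when *Phf2* KO replicate 2 was. *Kcns1*, the other silent subunit that was named, had a log2 fold change of 0.26 and was not called.

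*Kcnq5*, of the family that carries the M current, was counted 47 and 41 times in WT against 15 and 26 times in *Phf2* KO, without overlap (log2 fold change -0.96, SE 0.344, adjusted p 0.0361 with the block, edgeR). The annotated transcript *Gm16705* overlaps its exons on the other strand. *Kcnh5*, an ether-a-go-go channel, had 13 and 18 counts in WT against 3 and 2 in *Phf2* KO. That is 18.0% of WT from pooled counts (95% exact counting interval 5.48% to 46.8%), with *Phf2* KO at the limit of detection. The limits given for the intervals of *Kcnn2* and *Kcnn3* apply to this one too. Its relative *Kcnh1* lay at -0.57 with no overlap between groups and was not called. The shaker-type genes *Kcna1* (0.19), *Kcna2* (0.42), *Kcna4* (-0.33) and *Kcna6* (0.05), the A-type *Kcnd1* (-0.26) and *Kcnd2* (-0.03), and *Kcnh2* (0.15), which carries the rapid repolarizing current of the heart, were not called in either fit. The change of *Kcna2* is among the 5 largest upward values of the named genes, but its log2 ratios were -0.10 inside replicate 1 and 0.88 inside replicate 2.

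Among the subunits of voltage-gated potassium channels, *Kcnab1*, an oxidoreductase-like cytoplasmic subunit that speeds inactivation, was counted 439 and 588 times in WT against 491 and 690 times in *Phf2* KO. Scaled for depth, both *Phf2* KO libraries lay above both WT libraries (log2 fold change 0.36, SE 0.169, adjusted p 0.0131 with the block, edgeR). It was 0.21 without WT replicate 1 and 0.21 without *Phf2* KO replicate 2. *Kcne4*, which was abundant per kilobase, was counted 2824 and 4046 times in WT against 2409 and 2964 times in *Phf2* KO and did not differ beyond its spread (-0.19, SE 0.158). *Kcnab3* (-0.83), *Kcnab2* (0.10) and the calcium-binding *Kcnip3* (-0.62) were not called.

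Inward rectifiers hold the resting potential near that of potassium. *Kcnj2*, the classical strong rectifier, was counted 89 and 69 times in WT against 61 and 28 times in *Phf2* KO. Its groups overlapped, and it was lower inside both numbers, by log2 ratios of -0.33 and -1.19 (adjusted p 0.0533 with the block, edgeR). Its log2 fold change of -0.63 became -0.38 without WT replicate 1, -1.44 when *Phf2* KO replicate 1 was dropped and -0.11 when *Phf2* KO replicate 2 was. *Kcnj8* was among the steadiest members, with 1068 and 1207 counts in WT against 1012 and 1164 in *Phf2* KO (log2 fold change 0.10, SE 0.0869). *Abcc9*, which encodes the sulfonylurea receptor that assembles with it and whose annotated 3′ end lies 16.5 kb from *Kcnj8* on chromosome 6 (mm9), was counted 617 and 694 times in WT against 355 and 477 times in *Phf2* KO. Its log2 fold change was -0.50 (SE 0.122), and it was called lower with the block (adjusted p 0.000151, edgeR). *Abcc9* was singled out after its values were seen, and the difference between the partners was not tested. *Kcnj4* (-0.42) and *Kcnj15* (-0.28) were not called, nor were the tandem-pore leak channels *Kcnk2* (0.07), *Kcnk5* (-0.03), *Kcnk6* (0.10) and *Kcnk13* (0.15).

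None of the 5 sodium channel genes tested was called in either fit. The neuronal pore *Scn2a1* (-0.50) was counted 94 and 78 times in WT against 42 and 68 times in *Phf2* KO. After scaling, both *Phf2* KO libraries lay below both WT libraries (background 18.0%). For the subunit *Scn3b* (-0.34) the groups overlapped.

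*Kcnq1ot1*, a long noncoding RNA transcribed from the paternal allele antisense to *Kcnq1*, was counted 608 and 946 times in WT against 737 and 1442 times in *Phf2* KO. The groups overlapped, but the ratio inside each number was raised, at log2 values of 0.50 and 0.72 (adjusted p 7.84e-09 with the block, edgeR; 0.00294 by DESeq2 with the block). Its log2 fold change of 0.63 became 0.39 without WT replicate 1, 0.96 when *Phf2* KO replicate 1 was dropped and 0.21 when *Phf2* KO replicate 2 was. The host gene *Kcnq1* had at most 2 counts in any library, so its own change was not detectable at this depth.

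**Figure D4:**
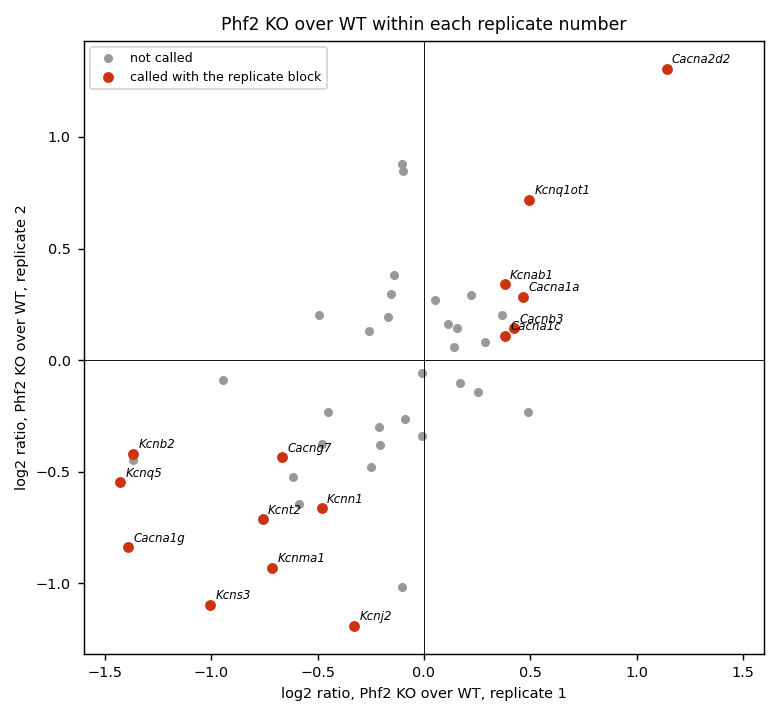
Log2 ratio of *Phf2* KO over WT inside replicate 1 (horizontal) against that inside replicate 2 (vertical) for 45 channel genes whose mean count reached 20. The 15 red points, called with the replicate block, all lie in the lower left or upper right part, where both ratios have the same sign. The blocked fit favours such genes. *Cacna2d2* lies farthest up and *Kcnj2* and *Kcns3* are among the farthest down.

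The libraries of one genotype also differed from each other. With genotype in the model, 8 channel genes were called higher in replicate 1 and 19 higher in replicate 2 (edgeR, adjusted p under 0.1), against 13.6% and 12.6% of all genes tested. This is more than the number called for *Phf2*. *Kcnn4* differed most, by 2.20 log2 units, with the counts given above. *Kcnk6*, a tandem-pore leak channel, was counted 343 and 69 times in WT against 275 and 115 times in *Phf2* KO (log2 difference 1.91). *Kcnab2* was counted 655 and 197 times in WT against 584 and 220 times in *Phf2* KO (1.73). *Kcnk13*, the leak channel known from microglia, was counted 128 and 50 times in WT against 131 and 42 times in *Phf2* KO (1.65). In each of these 4 genes both libraries numbered 1 lay well above both numbered 2.

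All 14 macrophage markers were higher in replicate 1 in both groups, so this list moved with the replicate number as *Kcnn4*, *Kcnk6*, *Kcnab2* and *Kcnk13* did. Of the 8 endothelial markers, 5 did so, and they summed to 48.9 and 17.9 CPM in WT against 43.1 and 17.9 CPM in *Phf2* KO. That sum rested largely on *Vwf* (647 and 152 counts in WT, 556 and 202 in *Phf2* KO) and *Kdr*. The endothelial marker *Pecam1* had 4 and 2 counts in WT and 4 and 5 in *Phf2* KO. Inside each number the macrophage sum was higher in *Phf2* KO, but in replicate 1 the markers did not all go this way. There *Lyz2* was counted 31934 times in WT and 35761 times in *Phf2* KO, while *Adgre1* was counted 2645 and 1702 times. The part of macrophages or other cells in the channel gene values was not tested. *Xist* was counted 10042 and 3 times in WT against 8336 and 12 times in *Phf2* KO, and the Y-linked *Ddx3y* 6 and 1271 times in WT against 10 and 1295 times in *Phf2* KO, so sex and replicate number cannot be told apart. In the other direction, *Cacna1h* was 1.53 log2 units and *Kcns3* 1.33 log2 units higher in replicate 2, as differences of -1.53 and -1.33 for replicate 1 minus replicate 2. The sum of the 8 smooth muscle and pericyte markers was also higher there, at 1674 against 1019 CPM in WT and 1446 against 1075 CPM in *Phf2* KO. Of these markers 1, *Des*, went the other way, with 1279 and 609 counts in WT and 664 and 338 in *Phf2* KO.

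**Figure D5:**
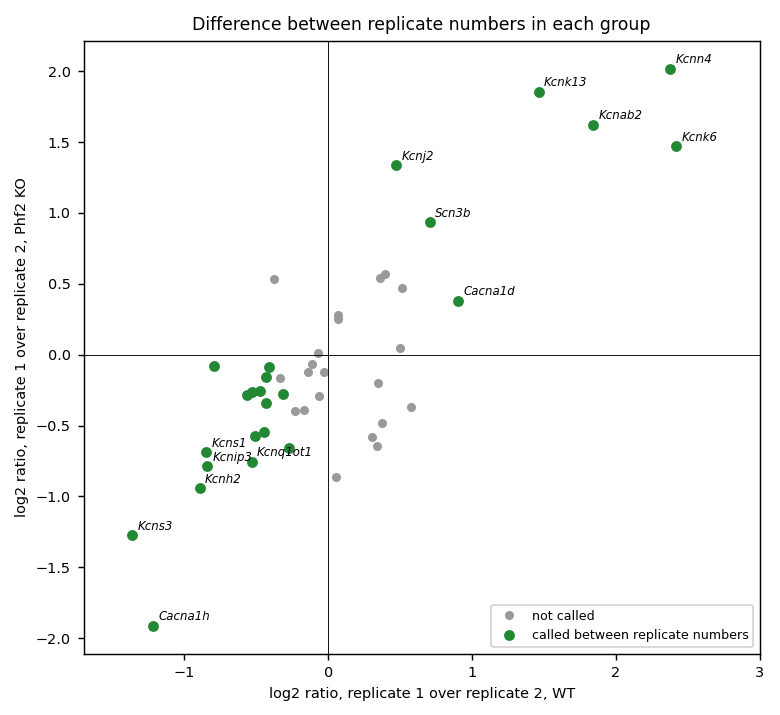
Log2 ratio of replicate 1 over replicate 2 in WT (horizontal) and in *Phf2* KO (vertical) for 45 channel genes whose mean count reached 20; green points were called between the replicate numbers. *Kcnn4*, *Kcnk6*, *Kcnab2* and *Kcnk13* lie in the upper right corner and *Cacna1h* and *Kcns3* in the lower left, so the same genes separated the numbers in both genotypes.

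The other genes of ion transport that were followed (channel partners, transient receptor potential and intracellular calcium channels, chloride channels, pumps and exchangers) numbered 111, of which 74 were tested. None was called without the block by edgeR's quasi-likelihood test, with 1 higher and 5 lower at an unadjusted p under 0.05 (background 1.54% and 2.67%). DESeq2 called *Atp2b4*, the likelihood ratio test *Trpc6*, and limma-voom none. With the block 6 were higher and 6 lower, 8.11% each way against 5.77% and 5.20% of all genes, which is near the background. *Trpc6*, a receptor-operated calcium entry channel, was counted 65 and 72 times in WT against 15 and 21 times in *Phf2* KO (log2 fold change -1.77, SE 0.269, adjusted p 2.58e-07 with the block, edgeR). *Atp2b4*, a calcium pump of the plasma membrane, was counted 561 and 652 times in WT against 244 and 348 times in *Phf2* KO (-0.88, SE 0.149, adjusted p 3.85e-12 with the block, edgeR). *Ryr3*, a calcium release channel of the endoplasmic reticulum, was counted 338 and 222 times in WT against 129 and 149 times in *Phf2* KO (-0.86, SE 0.278, adjusted p 6.08e-06 with the block, edgeR). In these 3 genes, which were chosen by the size of their change, both *Phf2* KO libraries lay below both WT libraries. Without WT replicate 1, *Ryr3* had a log2 fold change of -0.46.

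Of the genes called higher with the block, 3 had the largest rises. *Stac3*, an adaptor of the skeletal muscle calcium channel, was counted 35 and 63 times in WT against 56 and 110 times in *Phf2* KO (log2 fold change 0.91, SE 0.409). *Asic3*, an acid-sensing sodium channel, had 12 and 26 counts in WT against 16 and 49 in *Phf2* KO (0.91, SE 0.633), and *Ano8*, of the anoctamin family, had 1223 and 1754 in WT against 1373 and 1924 in *Phf2* KO (0.31, SE 0.180). *Asic3* and *Ano8* overlapped between the groups after scaling for depth while *Stac3* did not, and all 3 were called only with the block. Their values moved with single libraries: without *Phf2* KO replicate 2 the log2 fold changes were 0.48, 0.038 and 0.16, and without WT replicate 1 they were 0.59, 0.50 and 0.11. Without *Phf2* KO replicate 1 *Asic3* was at 1.43, and without WT replicate 2 *Asic3* and *Ano8* were at 1.48 and 0.51.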

How the data were processed

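RNA-seq libraries of 2 WT and 2 *Phf2* KO primary MEF samples were analysed. Per the labels and the methods, the authors used Trim Galore for adapters, Bowtie2 to discard ribosomal RNA, STAR (reverse stranded, mm9) to align and featureCounts to assign reads to genes. Their deposited counts are unnormalized whole numbers. Tool versions, annotation release and the strand setting of the counting are not given in the sources used here. The authors' table of DESeq2 fold changes and p-values was not used. ChIP-seq and other data of the study were not analysed here.

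Counts were tested with edgeR 4.0.16 in R 4.3.3 (filterByExpr, TMM, glmQLFit, glmQLFTest, Benjamini-Hochberg over 13668 genes, threshold 0.1) with genotype alone, and with the replicate number as a block. The shared numbers were checked by the correlation of replicate differences between the groups (log2(CPM + 1), r = 0.825, and 0.872 over the 49 channel genes whose mean count reached 20). Alternatives were DESeq2 1.42.0, limma 3.58.1 (voom), the likelihood ratio test, other scalings, filters and thresholds, and each library left out. The quasi-likelihood fits, with and without the block, were run on simulated counts as a check of the code. This does not show how they perform on these libraries. Positions and exon lengths came from GENCODE vM1 on NCBIM37 (22236 symbols placed, 1412 of them through synonyms), and promoters from RefSeq. Figures used Python 3.11.15 and Matplotlib 3.10.9.

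The members, the gene lists and the rules were chosen with earlier results of these data known. Every member with a mean count of at least 20 was named, except 4 that are not reported here by name but stay in the counts of genes. With the same exception, library counts were printed for those called in either fit, the 8 highest per kilobase, the 5 largest changes each way, the 6 largest differences between replicate numbers and those at the limit. Of the related genes, the 3 largest changes each way among those called with the block were named. Libraries held between 21094743 and 26094268 counts. Markers of fibroblast, smooth muscle, skeletal and cardiac muscle, neuron, glia, endothelial, macrophage and epithelial cells were summed. Neuron markers reached between 34.1 and 40.9 CPM, glia between 41.8 and 61.3, cardiac muscle between 15.8 and 25.6 and epithelial between 0.482 and 0.998.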

Additional observations from a re-analysis of the deposited data

How the results depend on the processing

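The count of called channel genes was 0 in edgeR's quasi-likelihood test and stayed 0 with limma-voom, RLE or library size scaling, either other filter, a mean count of at least 50, a threshold of 0.05 and each library left out. It was 1 with DESeq2 and with the likelihood ratio test, 19 with the replicate block, and, in alternatives chosen after seeing the data, 15 with the block at 0.05 and 3 with the block in DESeq2. The related genes gave 1, 1, 12, 10 and 2 in the same order. The 19 and the 15 channel genes include *Kcnn2*, *Kcnn3* and *Kcnh5*, whose direction the filter fixed. Between replicate numbers, 27 channel genes were called, against 11 with DESeq2 and 9 without the genotype term, in which the libraries of a number are not adjusted for genotype. The median log2 fold change of the channel genes was -0.11, ran from -0.14 to -0.03 under other settings, and from -0.23 to -0.15 with each library left out, lowest without *Phf2* KO replicate 2. In each fit with a library left out the filter on low counts was applied anew. The channel genes behind those medians can therefore differ from those of the main fit. Of 22 genes followed, 2 changed sign, each when a WT library was left out: *Cacna1c* ran from -0.015 to 0.50 and *Kcne4* from -0.38 to 0.016. The cause of these shifts was not tested. With 2 libraries per group and counts under 30 for *Kcnn2*, *Kcnn3* and *Kcnh5*, smaller changes of weakly expressed channels were not detectable at this depth.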
